A study of Mus musculus with 16 samples.

Results

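Immunoglobulin variable (V) segments were followed in RNA-seq of memory CD4+ T cells sorted from mouse spleen. The table of 56748 genes held 346 rows named Ighv, Igkv or Iglv, and the 124 rows with at least 50 reads summed over the 16 samples, on the scale of the deposited estimated counts, were kept as members. These comprised 58 heavy-chain segments on chromosome 12, 63 kappa segments on chromosome 6 and 3 lambda segments on chromosome 16. All members were annotated as V genes and none as V pseudogenes, and together they held 96.8% of the counts given to Ig V rows. Of the other rows, 146 had no count and 76 had a summed count under 50. Members were thus selected on the summed count alone, with no use of the groups. Ighv2-3 and Ighv3-8 lay just inside it with 53 and 56 counts, and Ighv1-19 and Ighv1-36 lay just outside it with 49 counts each.

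The cells were CD4+ with low or no CD25, negative for CD62L and high for CD44, taken from male littermates aged 6 to 12 weeks on a mixed 129/Sv and C57BL/6 background. In the HP1a line, HP1a KO mice were homozygous for a mutated allele of Cbx5, the gene of the heterochromatin protein HP1a, made by crossing floxed mice with CMV-cre mice, whose Cre acts in every tissue. HP1a WT mice came from the same intercrosses of heterozygotes and had the intact gene. In the HP1g line all mice were homozygous for a floxed Cbx3 allele, the gene of HP1g, and HP1g KO mice additionally carried Cd4-cre, which acts in T cells, whereas HP1g WT mice lacked it. Each of the 4 groups had 4 samples.

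V segments encode most of the antigen-binding domain of an antibody chain. In a developing B cell 1 heavy-chain V segment is joined to D and J segments, and 1 light-chain V segment to a J segment, so each B cell and its progeny transcribe mainly a single heavy and a single light segment. Transcription from rearranged segments is driven by a promoter that holds an octamer bound by POU-domain factors, and it is highest in plasma cells, which secrete antibody. T cells do not complete the joining of heavy V segments and rearrange the T cell receptor V segments in their place. A short germline transcript of a V segment can also be made without joining.

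Sequence decides how well reads can be told apart between segments, so the V exons of the highest member and its nearest relative are shown first. The last 300 bases were read from GRCm39 in the direction of the gene, and capitals mark the 10 bases at which the exons differ, 303 of 313 bases being the same (96.8%). The stretch of Igkv1-110 lies at chr6:68247952-68248251 and that of Igkv1-117 at chr6:68098512-68098811, both on the plus strand and in coding exon.
Igkv1-110: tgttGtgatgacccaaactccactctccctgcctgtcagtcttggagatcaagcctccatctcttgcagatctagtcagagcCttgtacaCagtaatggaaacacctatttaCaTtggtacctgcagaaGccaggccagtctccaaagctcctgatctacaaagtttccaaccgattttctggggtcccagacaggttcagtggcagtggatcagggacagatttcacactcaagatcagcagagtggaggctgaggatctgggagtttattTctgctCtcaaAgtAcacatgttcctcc
Igkv1-117: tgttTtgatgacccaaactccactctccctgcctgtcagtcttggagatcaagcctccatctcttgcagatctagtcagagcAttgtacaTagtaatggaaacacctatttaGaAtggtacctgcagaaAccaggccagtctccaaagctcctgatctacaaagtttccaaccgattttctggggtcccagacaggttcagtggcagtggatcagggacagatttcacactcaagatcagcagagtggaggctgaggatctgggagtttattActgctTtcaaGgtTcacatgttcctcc

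The counts of this pair were estimates in which reads were divided between both segments. In 13 samples the value of at least 1 of them was not a whole number, and in all 13 the sum of the pair was whole within 0.01. Their separate values are therefore uncertain, and the pair is also given as a sum. A further 11 members shared at least 150 bases at 98% identity or more with another gene (Ighv1-15, Ighv1-52, Ighv1-62-2, Ighv1-71, Ighv1-72, Ighv11-2, Igkv2-137, Igkv3-10, Igkv3-5, Igkv5-43 and Igkv6-20). Over all members, 9.83% of the values were not whole, against 11.6% over all genes.

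Igkv8-27 and Igkv8-19 are shown because the first had the smallest p-value between the knockouts and the second within the HP1a line. Capitals mark bases that differ or have no aligned base in the other exon. The exons have 279 bases in common (88.3%), and both segments had whole counts in every sample. The stretch shown of Igkv8-27 lies at chr6:70148793-70149087 and that of Igkv8-19 at chr6:70317860-70318159, both on the minus strand of GRCm39 and in coding exon, and both begin at the same base of the exon.
Igkv8-27: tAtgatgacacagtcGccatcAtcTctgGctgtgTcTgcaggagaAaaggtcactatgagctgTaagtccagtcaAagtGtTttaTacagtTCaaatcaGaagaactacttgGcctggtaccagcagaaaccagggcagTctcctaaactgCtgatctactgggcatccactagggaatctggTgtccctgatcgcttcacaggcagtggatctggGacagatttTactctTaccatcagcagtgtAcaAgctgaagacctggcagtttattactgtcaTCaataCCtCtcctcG
Igkv8-19: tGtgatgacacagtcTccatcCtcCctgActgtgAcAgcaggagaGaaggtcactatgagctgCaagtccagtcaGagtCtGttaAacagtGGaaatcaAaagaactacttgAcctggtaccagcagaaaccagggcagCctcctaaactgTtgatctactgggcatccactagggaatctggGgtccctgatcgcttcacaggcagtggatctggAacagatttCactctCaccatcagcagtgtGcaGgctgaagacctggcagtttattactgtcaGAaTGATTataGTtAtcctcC

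The octamer ATGCAAAT, or ATTTGCAT as read on the other strand, was searched in the 250 bases before the start codon. It was found for 97 of the 124 members (78.2%), for 49 of the 62 other Ig V genes that are not pseudogenes and had 1 to 49 counts (79.0%), for 21 of the 30 with under 1 count (70.0%), and for 266 of 21757 protein-coding genes (1.22%). Read along the gene, all 48 heavy-chain members with a match had ATGCAAAT, whereas 45 kappa and 3 lambda members had ATTTGCAT, with 1 kappa member in the heavy-chain form. The match lay 78 to 201 bases before the start codon, with a median of 107. As examples, 5 members with a match are shown as 30 bases with the octamer in capitals, to let the opposite direction be seen in heavy and light segments.
Ighv8-12: ctgaggcgggaATGCAAATctctcctggat
Ighv5-4: agcaggaagacATGCAAATaagtcttctct
Igkv4-86: tatatcttgttATTTGCATacttcatattc
Igkv14-126: ggttctcaatgATTTGCATgctctcacttc
Iglv1: aaatgaaagtaATTTGCATtactagcccag

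These windows lie at chr12:115612067-115612096, chr12:113561637-113561666 and chr6:68888011-68888040 on the minus strand, at chr6:67873059-67873088 on the plus strand, and at chr16:18904297-18904326 on the minus strand. The exact letters were not in the window of Igkv1-110, Igkv1-117 or Igkv8-27. A match describes letters only.

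The samples held 26694045 to 40199637 counts, so a count of 0 allowed a share of up to 7.46e-06 to 1.12e-05% (3 counts of the total, counting error only). Cd4 lay at 1015 to 1369 counts per 1000000 counts (CPM, scaled by the TMM method) and Cd3e, a T cell receptor subunit, at 259 to 359 CPM. Cd8a lay at 0.541 to 7.39 CPM, and Foxp3, the marker of regulatory T cells, at 57.5 to 164 CPM. Cbx5 had 23.0 to 29.0 CPM in HP1a KO and 33.8 to 54.0 CPM in HP1a WT (log2 fold change −0.57, adjusted p = 0.946 by edgeR), and Cbx3 had 45.9 to 50.3 CPM in HP1g KO and 73.3 to 92.4 CPM in HP1g WT (−0.82, adjusted p = 0.0015). Every knockout sample was thus below every wild-type sample of its own line without reaching 0. In the HP1g line, where Cbx5 was not targeted, it lay at 20.1 to 29.8 CPM in HP1g KO and 27.1 to 37.3 CPM in HP1g WT, so the HP1a KO level overlapped both. Whether counted reads came from outside the deleted exons was not tested. For protein, the paper reports that naive CD4+ T cells of the HP1a knockout lacked HP1a. It reports a nearly full loss of HP1g in naive CD4+ T cells of the HP1g knockout.

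Ig V transcripts were present in every sample at a low level. They made up 0.00123% (HP1g WT replicate 4) to 0.023% (HP1a KO replicate 3) of all counts, and 1 Ig V count stood against 2.71 to 49.3 counts of T cell receptor alpha and beta V segments. In HP1a KO replicates 1 to 4 the members summed to 65.4, 50.7, 232 and 69.8 CPM. In HP1a WT they summed to 57.3, 23.5, 129 and 48.5 CPM. Replicate 3 was the highest sample in both groups of this line, with more than 1.5 times the level of any other sample in its group. In HP1g KO the sums were 61.0, 26.1, 30.5 and 39.3 CPM, and in HP1g WT 46.3, 43.8, 41.8 and 12.5 CPM.

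**Figure D1:**
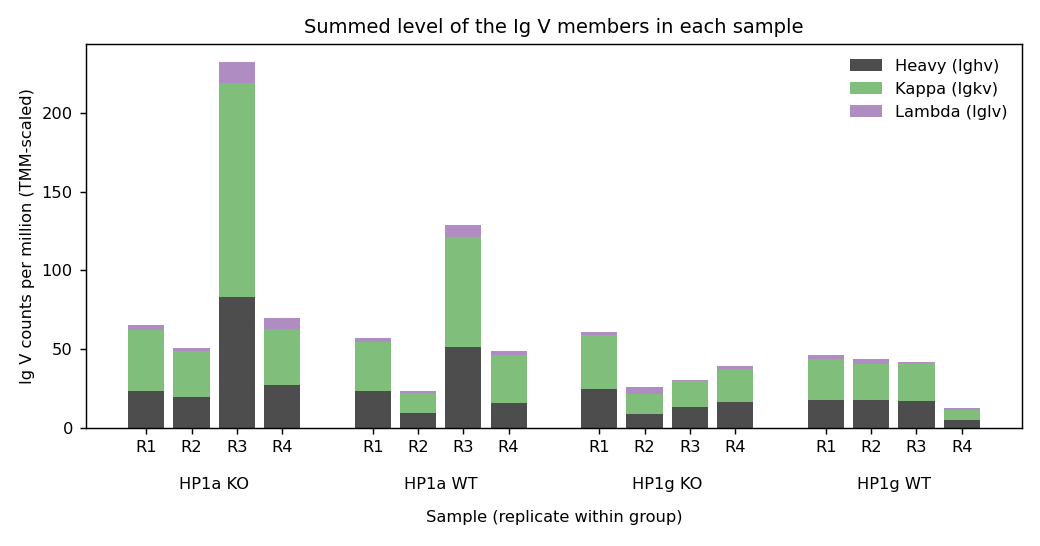
Stacked bars give the summed CPM (TMM-scaled, from 0) of heavy, kappa and lambda members in each of the 16 samples, by group and replicate. HP1a KO replicate 3 reaches 232 CPM and HP1a WT replicate 3 reaches 129 CPM, and the other samples lie between 12.5 and 69.8 CPM.

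The group means were 104 ± 85.5 CPM in HP1a KO, 64.5 ± 45.1 in HP1a WT, 39.2 ± 15.5 in HP1g KO and 36.1 ± 15.9 in HP1g WT (SD, n = 4 each). In each of the 4 comparisons made here the groups overlapped. Every HP1a KO sample lay above every HP1g WT sample (at least 50.7 against at most 46.3 CPM), a pair that differs in both line and genotype and was not compared further. On the log2 scale the ratio of means was 0.70 for HP1a KO over HP1a WT, 0.12 for HP1g KO over HP1g WT, 0.84 for HP1a WT over HP1g WT and 1.41 for HP1a KO over HP1g KO. Without replicate 3 the HP1a KO mean was 61.9 ± 9.99 CPM and its log2 ratio to HP1a WT turned to −0.06, and without replicate 3 the HP1a WT mean was 43.1 ± 17.5 CPM. With replicate 3 left out of both groups HP1a KO thus again had the higher mean. No test was made of a sum over members. In bulk RNA, fewer cells of a type and less RNA per cell cannot be told apart.

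Heavy-chain segments made up 33.1% to 43.5% of Ig V counts in all 16 samples. Lambda segments varied more, from 1.58% of the light-chain V counts in HP1g WT replicate 3 to 27.4% in HP1g KO replicate 2, where Iglv1 alone had 123 counts. The median over samples was 8.41%.

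The constant genes, which are spliced to the V segments in antibody mRNA, were compared with the V segments per length, in TPM, transcript abundance scaled to length and library. Igkc, the kappa constant gene, lay at 76.2 to 1135 TPM. The kappa V members summed to 45.2 to 885 TPM, which was 0.593 to 0.811 of the Igkc level of the same sample. Igkc thus ranked HP1a KO replicate 3 first, HP1a WT replicate 3 second and HP1g WT replicate 4 last, as the V segments did.

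Ighm, the constant gene of IgM, did not keep such a ratio to the heavy-chain V sum. It lay at 278 to 751 TPM, over a range much narrower than that of the heavy-chain V sum, 34.9 to 539 TPM. Its level was 1.39 times the heavy-chain V sum in HP1a KO replicate 3 and 8.93 times in HP1g WT replicate 4. Ig J segments had 0 to 3 counts in a sample.

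**Figure D2:**
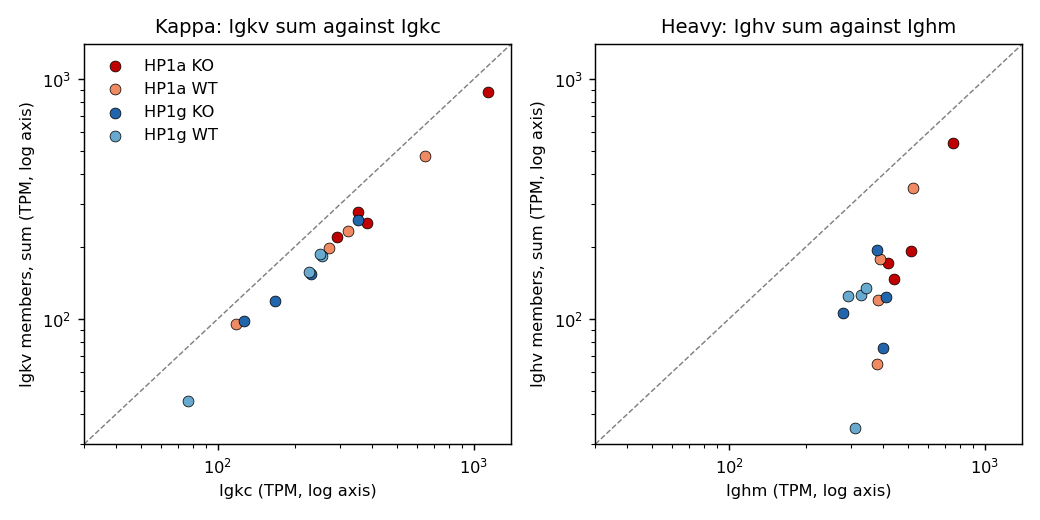
Each point is a sample, with the constant gene on the x axis and the V member sum of the same chain on the y axis, both in TPM on log axes, and the dashed line marks equal levels. Kappa points run parallel to the line at 0.593 to 0.811 of Igkc, whereas heavy-chain points lie 1.39 to 8.93 times to the right of it.

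Switched constant genes varied widely within groups. Igha, the IgA gene, had 2182, 1519, 2417 and 855 counts in HP1a KO, 2313, 478, 1913 and 454 in HP1a WT, 995, 0, 1043 and 1357 in HP1g KO, and 1208, 268, 1380 and 51 in HP1g WT. HP1g KO replicate 2 thus had no IgA count beside 769 Ig V counts. Ighg2c was found in HP1a WT replicates 2 and 3 with 155 and 307 counts and had 0 or 1 count elsewhere. The mice were of a mixed strain background. Whether V and constant gene alleles that differ from the reference genome were counted in full was not tested. Ighg2b reached 318 counts in HP1a WT replicate 2, 304 in HP1a KO replicate 4 and 270 in HP1g KO replicate 3. Ighe, the IgE gene, had no count.

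Markers of B lineage cells were present at low levels, and their part in the Ig V level was not tested. All 18 genes of the B cell list were in the table. Their sum ran from 105 to 137 CPM in HP1a KO, 103 to 121 in HP1a WT, 110 to 157 in HP1g KO and 101 to 109 in HP1g WT, of which Cd22 held 29.0 to 55.9 CPM. Cd79a, a subunit of the B cell receptor, was above 0 in every sample, at 1.25 CPM in HP1g WT replicate 4 and 8.18 CPM in HP1a KO replicate 3, the lowest and the highest Ig V samples. Jchain, which joins IgA and IgM in plasma cells, ran from 3.8 to 47.8 CPM between the same samples. Not all markers had their extremes in these samples. The B cell list sum was highest in HP1g KO replicate 4 (157 CPM), beside 39.3 CPM of Ig V, and Cd22 in HP1a KO replicate 4 (55.9 CPM). Sdc1, a plasma cell gene, had 2.50 CPM in HP1a KO replicate 3 and 5.07 CPM in HP1g WT replicate 4. These samples are of different lines, and Sdc1 differed by line, at 1.14 to 2.72 CPM in the HP1a line and 4.47 to 8.61 CPM in the HP1g line. Within the HP1a line its highest values were in HP1a WT replicate 3 (2.72 CPM) and HP1a KO replicate 3. Within the HP1g line its lowest value was in HP1g KO replicate 3 (4.47 CPM). Of the plasma cell list, 11 of 11 genes were in the table, with sums of 343 to 532, 322 to 483, 690 to 747 and 558 to 708 CPM in the groups in the same order. Much of that sum was Irf4 and Xbp1, which T cells also express.

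Individual members were scattered over samples. Only 3 members, Iglv1, Igkv1-135 and Ighv1-53, had at least 3 counts in all 16 samples. A member reached 3 counts in 7 samples at the median, 81 members did so in 8 samples or fewer, and 41.6% of all member values were 0. For 33 members over 50% of the summed count came from 1 sample. HP1a KO replicate 3 held 24.4% of all member counts and the highest count of 44 members.

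At least 3 counts in every sample of a group were found for 29 members in HP1a KO, 19 in HP1a WT, 10 in HP1g KO and 6 in HP1g WT. Under 3 counts in every sample were found for 6, 13, 31 and 27 members. In all 8 HP1a line samples 1 member had no count, and in all 8 HP1g line samples 4 members had none. These numbers follow the Ig V totals of the samples, 410 to 7891 counts, as well as the segments used, and their parts were not tested. The minimum on the summed count also favours segments used in the HP1a line, whose mean totals were higher. Mean totals were 3702 counts in HP1a KO, 1951 in HP1a WT, 1211 in HP1g KO and 1234 in HP1g WT.

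The highest members by mean level over samples were mostly kappa segments. Igkv1-110 had 2.52 CPM, Iglv1 2.27, Igkv1-117 2.27, Igkv10-96 2.21, Igkv1-135 1.83, Igkv15-103 1.72, Ighv1-53 1.37, Igkv8-27 1.34, Igkv14-111 1.27 and Igkv12-44 1.20 CPM. HP1a KO replicate 3 weighs most in this order. By the mean share of a sample's Ig V counts, in which samples weigh alike, 9 of these 10 were again among the first 10, led by Igkv1-110 with 4.39%, Igkv10-96 with 3.99% and Iglv1 with 3.98%. Igkv8-27 moved from rank 8 to rank 15 with 1.68%, and Ighv6-3 entered with 1.97%. Coding lengths of the members ran from 338 to 394 bases, so the order is little altered by length. Igkv1-110 and Igkv1-117 together had from 3 counts in HP1g WT replicate 4 to 670 in HP1a KO replicate 3. Their share of a sample's Ig V counts ran from 0.612% in HP1a KO replicate 1 to 20.7% in HP1g KO replicate 4. By family, Ighv1 with 30 members took 20.4% on average (10.7% to 31.7%), Igkv1 with 5 members 11.8%, Igkv4 with 14 members 7.77% and Igkv8 with 6 members 5.18%.

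The largest member of a sample changed from sample to sample. In HP1a KO replicates 1 to 4 it was Igkv6-23 with 8.15% of the Ig V counts, Igkv1-110 with 8.66%, Igkv15-103 with 5.17% and Iglv1 with 9.34%. In HP1a WT it was Igkv6-25 with 9.05%, Igkv10-96 with 7.82%, Igkv1-135 with 6.94% and Igkv1-117 with 10.7%. No segment led more than 1 sample of a group.

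In the HP1g line single segments took larger shares in 3 of the 4 knockout samples. The leading segments in HP1g KO were Igkv12-44 with 6.90%, Iglv1 with 16%, Ighv1-53 with 20.7% and Igkv1-110 with 16.6%. In HP1g WT they were Igkv3-2 with 6.51%, Igkv16-104 with 8.72%, Igkv1-110 with 11.1% and Ighv6-3 with 9.02%. HP1g KO replicates 2 to 4 thus lay above all 12 samples of the other groups, and replicate 1 lay among them.

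HP1g KO replicate 3 was dominated by a heavy and a kappa segment of nearly equal count. Ighv1-53 had 193 counts, 47.5% of its heavy-chain V counts, and Igkv12-44 had 182 counts, 35.5% of its kappa V counts. The next members, Ighv9-3 with 70 counts and Igkv10-96 with 78, were also nearly equal. The 10 largest members held 81.7% of the Ig V counts of this sample. In HP1g KO replicate 1 the same segments, Ighv1-53 with 104 counts and Igkv12-44 with 111, were again the largest of their loci, at 15.9% and 12.2%. There the next members were close, Ighv1-76 with 96 counts (14.7%) and Igkv14-111 with 107 (11.8%). In no other sample did both Ighv1-53 and Igkv12-44 lead.

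**Figure D3:**
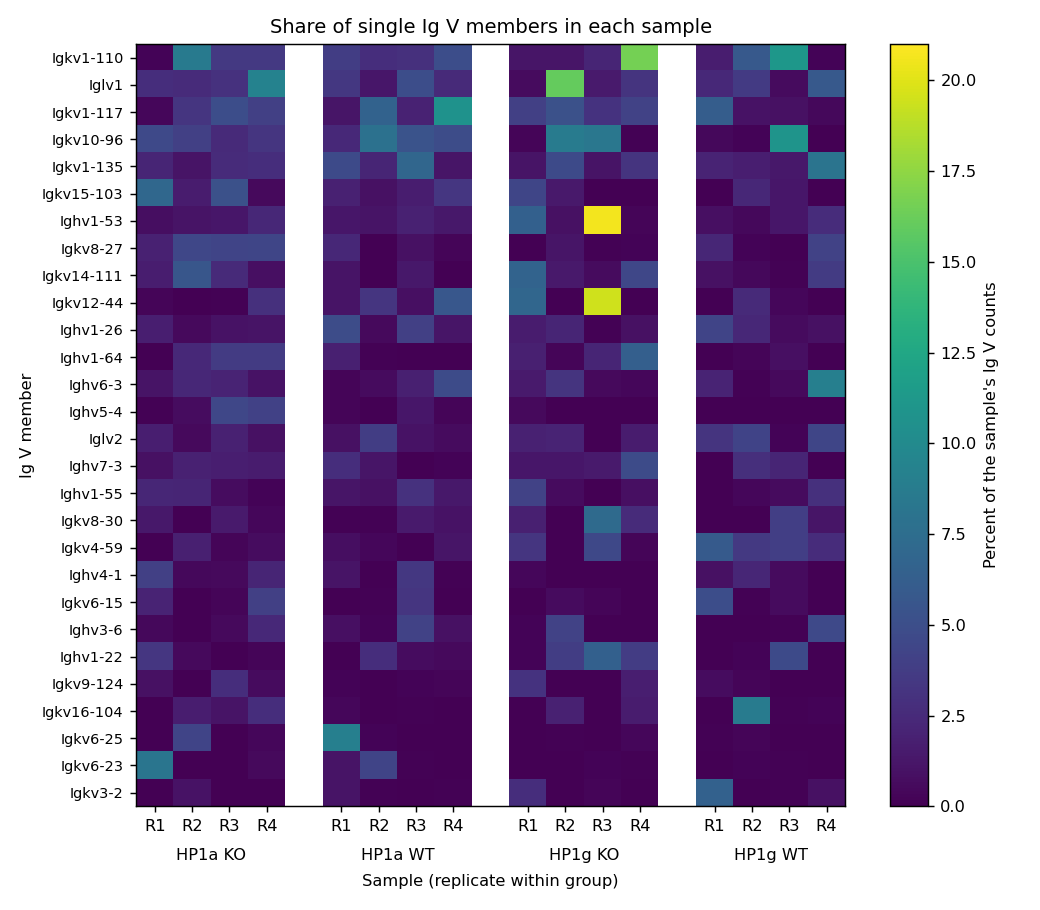
Each row is a member (the 24 highest by mean level and each sample's largest) and each column a sample, with colour giving the percent of that sample's Ig V counts on a linear scale. The brightest cells are Ighv1-53 (20.7%) and Igkv12-44 (19.5%) in HP1g KO replicate 3, Igkv1-110 (16.6%) in replicate 4 and Iglv1 (16%) in replicate 2.

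Evenness was summarised by the effective number of segments, the number of equally used members that would give the same sum of squared shares. It was 34.2, 34.4, 44.2 and 34.3 in HP1a KO, and 36, 25.3, 37 and 26 in HP1a WT. In HP1g KO it was 28.6, 19, 9.23 and 18.1, and in HP1g WT 25.6, 30.1, 20.1 and 21. All HP1a KO samples lay above all HP1g KO samples (means 36.8 ± 4.96 and 18.7 ± 7.93, SD, n = 4 each), a separation that 32.3% of all tested genes also showed in their CPM. The other pairs compared overlapped, both knockouts with their wild types and the wild types with each other. The exact permutation test was not applied, since the value is a score over chosen members.

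Total Ig V counts moved with this measure, so each sample was thinned to 410 counts, the total of the smallest. The effective number was then 31.8 to 38.3 in HP1a KO, 24.3 to 34.3 in HP1a WT, 8.83 to 26.2 in HP1g KO and 18.8 to 29.5 in HP1g WT, and HP1a KO and HP1g KO still did not overlap. T cell receptor V segments of the same libraries, 131 of them with at least 50 summed counts, gave 30.4 to 37.9 in all samples, with overlapping groups. Their largest segment took 6.70% to 11.3% of T cell receptor V counts.

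**Figure D4:**
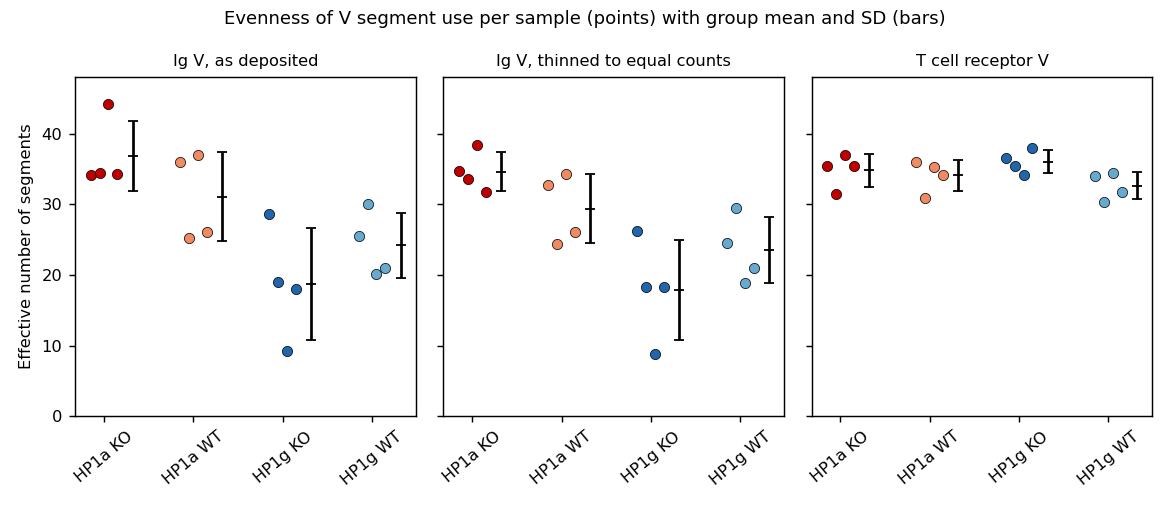
Points give the effective number of segments in each sample by group, for Ig V counts as deposited, Ig V counts thinned to 410 per sample and T cell receptor V counts, with the group mean and SD (n = 4) beside them. Ig V values fall from a mean of 36.8 in HP1a KO to 18.7 in HP1g KO, whereas T cell receptor values lie between 30.4 and 37.9.

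Single members were tested with all genes by the quasi-likelihood test of edgeR, with p-values adjusted by Benjamini-Hochberg over all genes. A call needed an adjusted p below 0.05 together with a log2 fold change past 1 in either direction. Most members were too low to enter. A member that entered only through its high group had to differ, so counts over the members tested describe them and carry no support. The comparisons share samples: each group enters 1 comparison with its own line and 1 with the other line.

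HP1a KO was first compared with HP1a WT, the littermates with intact HP1a. Of 124 members 49 were tested and 0 were called (0 of 14881 genes, 0%). At an unadjusted p under 0.05 there were 3 members, all higher in HP1a KO, against 4.27% of all genes, and DESeq2 called 0. These were Igkv8-19 (log2 fold change 3.33, SE 1.03), Igkv8-27 (2.62, SE 0.94) and Ighv1-64 (3.42, SE 1.40), each with an adjusted p of 0.946. Igkv8-19 had 7, 15, 96 and 112 counts in HP1a KO and 16, 2, 1 and 1 in HP1a WT. The 2 groups overlapped for Igkv8-19, since HP1a WT replicate 1 lay above HP1a KO replicates 1 and 2.

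Igkv14-126, at chr6:67873156-67873626, was the only member with at least 3 counts in every sample of a group and none in the group compared with it. It had 13, 11, 20 and 3 counts in HP1a KO and 0 in all HP1a WT samples, which makes it at least 3.58-fold higher when HP1a WT is set at 3 counts per library. In the HP1g line it had 8, 0, 9 and 0 counts in HP1g KO and 0, 0, 0 and 7 in HP1g WT. It did not pass the filter on low counts and was not tested. Ighv9-1 also did not overlap, with 2, 11, 122 and 2 counts in HP1a KO and 0 in HP1a WT. Groups that did not overlap were found for 2.96% of the genes tested in this comparison.

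HP1g KO against HP1g WT gave 16 tested members and 0 calls (35 of 14975 genes, 0.234%). With edgeR 3 members had an unadjusted p under 0.05, all higher in HP1g KO, against 11.9% of all genes, and DESeq2 called 0. In this comparison 0 members had groups that did not overlap, against 7.11% of the genes tested. Ighv1-64 had 1.09 ± 1.04 CPM against 0.118 ± 0.162 (log2 fold change 3.21, SE 1.04, adjusted p = 0.317). Ighv1-53 had 104, 7, 193 and 5 counts in HP1g KO and 12, 8, 17.7 and 11 in HP1g WT (adjusted p = 0.354). HP1g KO replicates 2 and 4 lay at 0.238 and 0.128 CPM beside 0.204 to 0.537 CPM in HP1g WT, so the groups overlapped. Igkv14-111 had 107, 11, 6 and 68 counts against 14, 8, 2 and 15 (adjusted p = 0.359).

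Between the wild types 26 members were tested and 0 were called (282 of 14804 genes, 1.9%). In this comparison 6 members had an unadjusted p under 0.05 by edgeR, 5 of them higher in HP1a WT, against 29.9% of all genes, and DESeq2 called 2. Igkv4-59 had the smallest adjusted p, 0.0545, and was lower in HP1a WT, with 14.9, 3.24, 1.14 and 18 counts against 85, 60, 54 and 11 in HP1g WT (log2 fold change −2.43, SE 0.74). Only HP1g WT replicate 4 lay within the range of HP1a WT. Ighv1-55 had 1.34 ± 1.66 CPM in HP1a WT and 0.202 ± 0.139 CPM in HP1g WT (log2 fold change 2.66, SE 0.86, adjusted p = 0.0664). Igkv4-59 and Ighv1-55 were the 2 members that DESeq2 called.

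Between the knockouts 35 members were tested and 4 were called, all higher in HP1a KO. Over all genes 651 of 15020 were called (4.33%), and 75 were called as higher in HP1a KO (0.499%). At an unadjusted p under 0.05 there were 9 members, all higher in HP1a KO, against 44.8% of all genes, and DESeq2 called 6.

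Igkv8-27, a kappa segment, had 51, 71, 339 and 118 counts in HP1a KO and 1, 9, 1 and 3 in HP1g KO. Every HP1a KO sample lay above every HP1g KO sample. The levels were 4.14 ± 3.96 and 0.113 ± 0.130 CPM (log2 fold change 5.16, SE 0.82, adjusted p = 0.00243). In HP1a WT it had 43, 0, 34 and 5 counts, and in HP1g WT 32, 4, 0 and 17, so the wild types overlapped.

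Ighv8-12, a heavy-chain segment, had 52, 10, 14 and 38 counts in HP1a KO and 0, 1, 4 and 0 in HP1g KO. Here too the knockouts did not overlap (log2 fold change 4.12, SE 0.82, adjusted p = 0.00529), but Ighv8-12 entered the test only through HP1a KO. Single wild-type samples reached the knockout level, with 24 counts in HP1a WT replicate 2 and 37 in HP1g WT replicate 3, whereas the other 6 wild-type samples had 0 to 2 counts.

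Igkv4-86 had 75, 13, 79 and 29 counts in HP1a KO and 11, 6, 7 and 3 in HP1g KO (log2 fold change 2.57, SE 0.62, adjusted p = 0.0114). In CPM its lowest HP1a KO sample, 0.413, lay just under its highest HP1g KO sample, 0.417, so the groups touched. With all 16 samples in 1 fit the adjusted p was 0.0886 and Igkv4-86 was not called, over a range of 0.000545 to 0.0886 for the alternatives. HP1a WT had 26, 0, 32 and 0 counts and HP1g WT 39, 26, 8 and 0.

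Ighv5-4 had 3, 11, 355 and 109 counts in HP1a KO and 9, 0, 0 and 0 in HP1g KO (log2 fold change 5.45, SE 1.57, adjusted p = 0.0233). Its groups overlapped. Without HP1a KO replicate 3 its adjusted p was 0.064, without HP1g KO replicate 2 it was 0.0656 and without HP1g KO replicate 3 it was 0.0529, over a range of 0.0165 to 0.0656 when each sample was left out in turn. In HP1g WT it had 0, 1.02, 1.00 and 0 counts, and in HP1a WT 5, 0, 44 and 5.

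**Figure D5:**
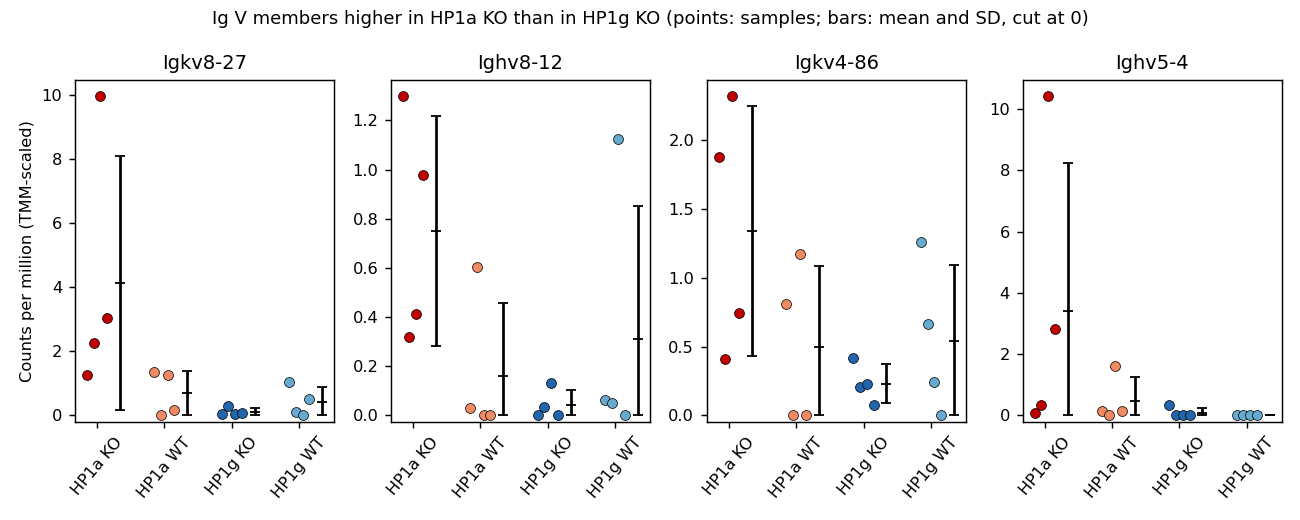
Points give the TMM-scaled CPM of Igkv8-27, Ighv8-12, Igkv4-86 and Ighv5-4 in each sample by group, with mean and SD (n = 4, bars cut at 0), each on its own linear axis. HP1a KO lies above HP1g KO without overlap for Igkv8-27 and Ighv8-12, and the wild types of the lines overlap for these members.

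Of the 35 members tested 2 did not overlap between the knockouts, against 32.3% of the tested genes. Counting members that were not tested, 9 of 124 did not overlap, all higher in HP1a KO. The share over genes that were not tested was not computed. Besides Igkv8-27 and Ighv8-12 these were Ighv6-6, Igkv8-28, Ighv5-9, Ighv10-3, Igkv8-19, Ighv9-1 and Igkv2-109. Between the wild types 0 of the 26 tested members did not overlap, against 19.5% of the tested genes. Igkv13-85 and Igkv8-19, which were not tested, did not overlap, both higher in HP1a WT. The lowest HP1a WT values were 0.0440 and 0.0316 CPM, and the highest HP1g WT values 0.0364 and 0.0304 CPM. All lay under the level of 3 counts, which was at least 0.0756 CPM in these samples, so these separations are within counting error.

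Of the 13 constant genes, 9 were tested between the knockouts and 2 were called, both higher in HP1a KO (percent called over all genes as above). Ighg3, the IgG3 gene, had 99, 59, 377 and 59 counts in HP1a KO and 6, 10, 6 and 10 in HP1g KO (log2 fold change 4.04, SE 0.70, adjusted p = 0.0032), with no overlap. Igkc had 137 ± 109 CPM against 51.1 ± 23.0 (1.43, SE 0.47, adjusted p = 0.0395). Ighm also passed the adjusted p at a smaller fold change (0.59, SE 0.19, adjusted p = 0.0377). No constant gene passed in HP1a KO against HP1a WT, in HP1g KO against HP1g WT or between the wild types.

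B lineage genes did not all point the way the V segments did between the knockouts. Of 18 B cell genes 17 were tested, 1 was called higher in HP1a KO (Cr2, complement receptor 2, log2 fold change 1.17, adjusted p = 0.044) and 3 were called lower (Fcrla −1.73, Spib −1.20, Blnk −1.51). Of 11 plasma cell genes 10 were tested and 2 were called, both lower in HP1a KO (Sdc1, which encodes CD138, −1.58, adjusted p = 0.00202; Irf4 −1.25, adjusted p = 0.00113). The same pair was called lower in HP1a WT than in HP1g WT, Sdc1 at −1.69 and Irf4 at −1.06. Erythroid transcripts also moved, with 5 of 5 genes called lower in HP1a KO, at 35.4 to 187 CPM in sum against 81.8 to 1201 CPM in HP1g KO. Of 3 dendritic cell genes, all tested, 1 was called, Siglech of plasmacytoid dendritic cells (−1.89, adjusted p = 0.00845), and the list summed to 14.5 to 27.3 CPM in HP1a KO and 31.2 to 129 CPM in HP1g KO. Of 6 genes of the surrogate light chain and of V segment recombination only Dntt, which adds bases at the joints, was tested, and it was called lower in HP1a KO (−1.70, adjusted p = 0.0489). The part of these cell types in the V segment differences was not tested, and line, Cre driver, targeted gene and breeding background cannot be told apart between the knockouts.

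The test of whether the knockout effect differed between the lines took in 69 members and called 0 (5 of 15776 genes, 0.0317%). By edgeR 7 members had an unadjusted p under 0.05, 5 of them with the higher knockout effect in the HP1a line, against 9.58% of all genes, and DESeq2 called 0. The smallest adjusted p was 0.440, shared by Ighv9-3 (difference of log2 fold changes −5.32, SE 1.84), Igkv8-27 (4.43, SE 1.60) and Igkv16-104 (5.59, SE 2.09). No member was therefore shown to respond differently to the 2 deletions.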

How the data were processed

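In all, 16 samples of mouse memory CD4+ T cells were profiled by stranded poly(A) RNA-seq with paired reads of 150 bp. The authors trimmed reads with Trim Galore and Cutadapt, aligned them with STAR to GRCm39 with Ensembl annotation and quantified genes with Salmon. The files they deposited hold estimated counts, with fractions of a read, and TPM values for each gene. Some culture and treatment labels describe another experiment of the study and were not used here.

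Groups were taken from the labels. Estimated counts were rounded for testing. Genes were filtered by filterByExpr (minimum count 10), scaled by TMM and tested by the quasi-likelihood test of edgeR 4.0.16 in R 4.3.3, with only the groups compared in each fit (all groups for the difference between lines) and no covariate. DESeq2 1.42.0 (the authors used another version of this tool) was an alternative, as were RLE scaling, no filter, 1 fit of all samples, a replicate block, other count minimums (10 and 200) and each sample left out in turn. Deposited TPM values were used to compare levels between genes and as another scale for Ig V sums. Ig V shares and CPM used unrounded counts.

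The genes named were the 10 highest members by mean CPM, the largest member of each sample, called members or otherwise the smallest p-values, members next to the count minimum, members present in 1 group and at 0 in another, Igkv14-126, the targeted genes and listed marker genes. The largest members by locus in HP1g KO and members without overlap between groups were named after their values were seen. Members and lists were chosen with earlier results of these data known. The values of 1 gene of the lists are not reported here.

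Gene models and sequences came from GRCm39 with GENCODE M39, in which all 346 Ig V rows were matched. V exons were compared with Biopython 1.88 and transcript sequences with blastn 2.17.0. Nothing in the labels says that replicates came from separate mice, so p-values measure the spread between these samples, which may be technical. Replicates of a group differed by more than counting noise (chi-square of 10.4 to 57.3 per gene). In no comparison did every same-numbered pair correlate over 0.1 (lowest 0.094 in the HP1a line), so numbers were not treated as pairs. Depth was 26694045 to 40199637 counts a sample.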

Additional observations from a re-analysis of the deposited data

Results flagged for a closer look

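In groups of 4 a sample was picked out when its distance to the nearest other sample took up more of the range of the group than Dixon's test allows. Of 112 groups checked 25 had such a sample, and many of these measures share counts. The 5% that Dixon's test allows by chance assumes normally spread values, whereas 41.6% of member values were 0. Some segments were also checked because they were the largest of a sample. The number flagged therefore cannot be set against 5%.

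HP1a KO replicate 3 stood above its group in summed Ig V (232 CPM), heavy-chain V (83.1 CPM), kappa V (136 CPM), Igkc (299 CPM), Jchain (47.8 CPM), the effective number of segments (44.2) and Ighv6-3 (4.86 CPM). HP1a WT replicate 3 stood above its group in Ighm (498 CPM). HP1g WT replicate 4 stood below its group in summed Ig V (12.5 CPM) and heavy-chain V (4.77 CPM). HP1g KO replicate 2 stood apart with 0 CPM of Igha.

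Single segments also stood out in 1 sample of a group. In HP1a KO these were Igkv6-23 in replicate 1 (5.33 CPM), Igkv6-25 in replicate 2 (2.18 CPM) and Igkv3-2 in replicate 2 (0.509 CPM). In HP1a WT they were Igkv6-25 (5.18 CPM) and Igkv3-2 (0.625 CPM), both in replicate 1. In HP1g KO they were Igkv1-110 in replicate 4 (6.53 CPM), Igkv15-103 (2.69 CPM) and Igkv3-2 (1.67 CPM) in replicate 1, and Igkv8-27 in replicate 2 (0.306 CPM). In HP1g WT they were Igkv1-117 (2.87 CPM) and Igkv3-2 (3.01 CPM) in replicate 1, Igkv12-44 (1.10 CPM) and Igkv16-104 (3.82 CPM) in replicate 2, and Igkv10-96 in replicate 3 (4.56 CPM).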

How the results depend on the processing

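Members called in HP1a KO against HP1a WT, in HP1g KO against HP1g WT and for the difference between lines numbered 0 under every alternative run. Between the wild types the 0 calls became 2 with DESeq2, 2 with all 16 samples in one fit and 17 with no filter on low counts, and 0 to 2 when each sample was left out, with 2 without HP1a WT replicate 2, HP1g WT replicate 3 or HP1g WT replicate 4 and 1 without HP1g WT replicate 2. Between the knockouts the 4 calls became 13 in one fit of all samples and 37 with no filter, and 3 to 12 when each sample was left out, being 3 without HP1a KO replicate 3 and 7 to 12 without any 1 of the other 7 samples. Of the original 4, 3 were shared with the fit of all samples, which lost Igkv4-86 (adjusted p = 0.0886, over a range of 0.000545 to 0.0886), and 4 with the fit without a filter. With a summed count of at least 200 the effective number was 23.8 in HP1a KO, 19.5 in HP1a WT, 12.3 in HP1g KO and 15.3 in HP1g WT, since fewer members entered. The causes of the other shifts were not tested. The log2 ratio of summed Ig V CPM ranged, with each sample left out, from −0.06 to 1.28 (HP1a KO over HP1a WT), −0.17 to 0.27 (HP1g KO over HP1g WT), 0.26 to 1.11 (wild types) and 0.66 to 1.71 (knockouts). Per count of the B cell list the ratio within the HP1g line was −0.09, and without Cd22, a setting chosen after seeing the data, 0.04.

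The replicate numbers were not treated as pairs. With the replicate number as a block 0, 0, 0, 3 and 0 members were called in the 5 comparisons in the order of the report, Ighv5-4 being lost between the knockouts (adjusted p = 0.0944, over a range of 0.00692 to 0.0944). Same-numbered samples had a mean correlation of 0.161 in the HP1a line, where 3 of 4 samples correlated best with their own number, and 0.0861 in the HP1g line, where 1 of 4 did. The summed Ig V level was higher in HP1a KO than in HP1a WT at 4 of 4 numbers. With 410 to 7891 Ig V counts a sample, a member holding 1% of the Ig V counts rests on few reads in the smallest samples.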
